A study of Bos taurus with 3 samples.

Results

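Fibroblast growth factors (FGFs) are secreted proteins that bind receptor tyrosine kinases, the FGF receptors, together with heparan sulfate on the cell surface, and so switch on the RAS and ERK kinase cascade. In developing organs the ligands and receptors are divided between tissues: mesenchyme makes ligands such as FGF7 and FGF10 that act on epithelium, while mesenchymal cells themselves carry other receptor forms and answer to FGF2. FGF2 is also a well-known mitogen of cultured fibroblasts. The genes described here are 6 ligands (FGF1, FGF2, FGF5, FGF7, FGF10 and FGF18) and the 4 receptors with a kinase domain (FGFR1, FGFR2, FGFR3 and FGFR4), chosen by symbol. Rows were found for 9 of these 10 genes among 31903 listed genes, and FGF5, a ligand known from control of hair growth, is not analysed here.

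RNA was sequenced from bovine fetal fibroblasts named BFF116, whose nuclei are moved into emptied oocytes to make cloned embryos. The series has 1 group of 3 replicates, each of 70000 cells deprived of serum for 48 h, with no unstarved or otherwise treated cells beside them. The labels call the replicates biological but name no culture or animal of origin, and some of the variation among them may be technical. Genotype, sex and passage are not given in the labels.

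Reads assigned to genes numbered between 4842331 and 8608350 per library. Levels are given as CPM, that is, reads of a gene per 1000000 gene reads after scaling between libraries. A gene reaching 1 CPM in each of the 3 libraries was called measured. By that rule 34.6% of all listed genes were measured. The cells carried their labelled identity at the level of markers, with 12 of 12 fibroblast markers measured and summed to between 107280 and 118910 CPM per library, while 0 of 9 epithelial markers were measured and summed to between 1.90 and 5.04 CPM. Measured markers of other cell types were 3 of 7 endothelial, 2 of 7 leukocyte, 0 of 5 skeletal muscle, 0 of 5 cartilage and bone, and 4 of 6 neural genes, none of whose lists summed to more than 27.3 CPM in a library.

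BFF116 cells carried transcripts of 4 FGF ligands, FGF7, FGF2, FGF10 and FGF18, and of 2 receptors, FGFR1 and FGFR2. These 6 genes of the 9 were measured, against the share of 34.6% over all listed genes. FGF1, FGFR3 and FGFR4 had 2, 1 and 0 reads over all libraries together. Transcript lengths were not used here, and a longer transcript gives more reads, so the order of CPM values between genes is an order of reads and not of transcript numbers. Differences of a gene between libraries are free of its length. Because cells were lysed in bulk, fewer cells expressing a gene and less RNA per cell cannot be told apart.

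**Figure D1:**
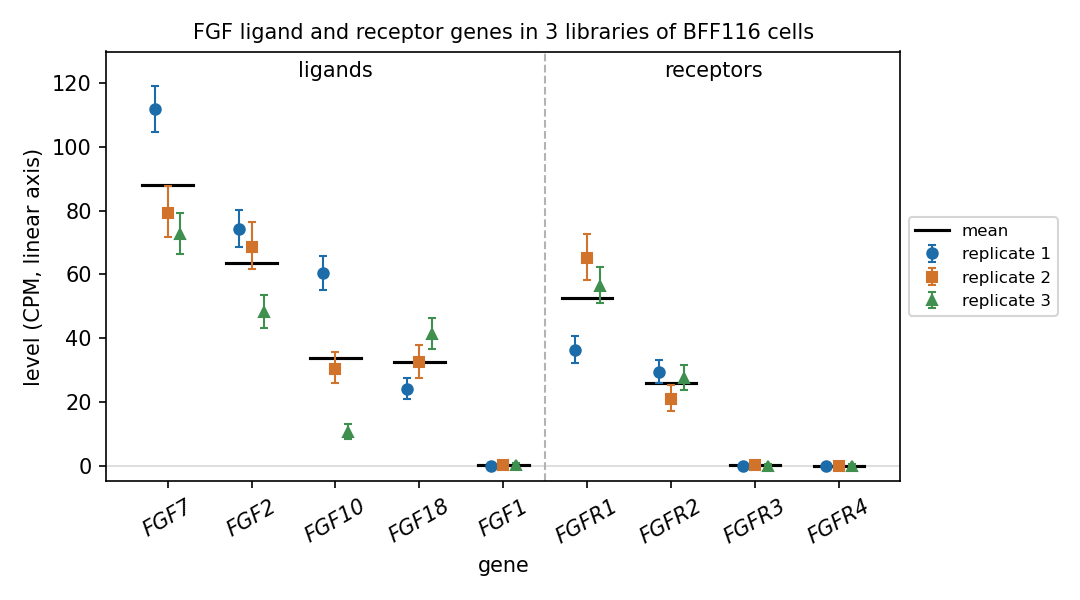
Level of each FGF gene with a row, in CPM on a linear axis, by gene, with ligands left and receptors right of the dashed line. Points are the 3 replicates with exact 95% Poisson intervals of their read counts, and black bars are means. FGF1, FGFR3 and FGFR4 lie at or near 0, and FGF10 spans from 60.3 CPM in replicate 1 to 10.4 CPM in replicate 3.

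Among the ligands, FGF7 had the most reads. FGF7, also called keratinocyte growth factor, is made by mesenchymal cells and acts on the epithelial splice form of FGFR2. It had 942, 394 and 516 reads in replicates 1 to 3, which correspond to 112, 79.4 and 72.6 CPM and a mean of 88.0 ± 20.999 CPM (SD, n = 3). Replicate 1 was the highest library, and the other two differed little, since their 95% counting intervals, 71.7 to 87.6 CPM in replicate 2 and 66.5 to 79.1 CPM in replicate 3, overlapped.

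FGF2, or basic FGF, lacks a signal peptide, leaves cells by an unconventional route and is stored on heparan sulfate. It had 625, 341 and 342 reads, or 74.2, 68.7 and 48.1 CPM, with a mean of 63.7 ± 13.8 CPM (SD, n = 3). Replicate 3 was the lowest library. In the RefSeq annotation (ARS-UCD2.0) the span of FGF2 overlaps that of NUDT6, which had 8, 3 and 1 reads, and without a known strand setting reads of the overlap cannot be assigned to either gene with certainty. The span of FGF7 likewise overlaps that of FAM227B, which had 4, 0 and 2 reads.

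FGF10, the mesenchymal ligand needed for outgrowth of limb and lung buds in mice, varied most between the libraries. It had 508, 151 and 74 reads, which correspond to 60.3, 30.4 and 10.4 CPM. The 95% counting intervals of 55.2 to 65.8, 25.8 to 35.7 and 8.18 to 13.1 CPM did not overlap, so that each library differed from the others by more than counting error. The mean of 33.7 ± 25.1 CPM (SD, n = 3) rests on replicate 1, and without that library it was 20.7 CPM.

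FGF18, a ligand best known from bone and cartilage growth, had 202, 161 and 293 reads, or 24.0, 32.4 and 41.2 CPM. Its mean was 32.6 ± 8.62 CPM (SD, n = 3). It was highest in replicate 3, the library with the lowest FGF10 level, and lowest in replicate 1, the library with the highest FGF10 level.

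FGF1, or acidic FGF, binds all 4 receptors and, like FGF2, lacks a signal peptide. It had 0, 1 and 1 reads. In replicate 1 the exact 95% Poisson interval of 0 reads reaches 0.438 CPM. In replicates 2 and 3 the exact 95% Poisson interval of 1 read reaches 1.12 and 0.784 CPM. Over all libraries FGF2 had 654 times the reads of FGF1 (exact 95% interval 181 to 5406), a ratio that carries the lengths of both transcripts. In RefSeq the span of FGF1 overlaps that of LOC100847454, which had 18, 8 and 8 reads in replicates 1 to 3. With the strand setting unknown, the origin of reads in this overlap is uncertain, and the low count of FGF1 and the ratio share that limit. FGF1 is the only ligand with a row, among the 5 analysed, that was below 1 CPM.

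Of the receptors, FGFR1, the main receptor of mesenchymal cells and of FGF2, had the most reads. It had 305, 324 and 401 reads, or 36.2, 65.3 and 56.4 CPM, and a mean of 52.6 ± 14.9 CPM (SD, n = 3). Replicate 1 was the lowest library, and its counting interval of 32.3 to 40.5 CPM lay below those of replicate 2 (58.4 to 72.8 CPM) and replicate 3 (51.0 to 62.2 CPM).

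FGFR2 exists in an epithelial splice form that receives FGF7 and FGF10 and a mesenchymal one that receives FGF2 and FGF18, and counts per gene do not separate them. It had 247, 104 and 196 reads, or 29.3, 20.96 and 27.6 CPM, with a mean of 26.0 ± 4.42 CPM (SD, n = 3). This was the smallest relative spread among the 6 measured genes, with a coefficient of variation of 17.0%, beside 21.6% for FGF2, 23.9% for FGF7, 26.5% for FGF18, 28.3% for FGFR1 and 74.5% for FGF10.

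FGFR3, the receptor that restrains growth-plate cartilage, had 0, 1 and 0 reads, and FGFR4, a receptor prominent in liver, had 0 in every library. Genes next to them in RefSeq were read: TACC3 beside FGFR3 had 43, 48 and 66 reads, LETM1 on its other side 15, 26 and 53, and RAB24 beside FGFR4 107, 88 and 118. Set against a floor of 3 reads per library for FGFR4 and summed over the libraries, FGFR1 had at least 114-fold and FGFR2 at least 60.8-fold as many reads. In the single library with the lowest bound these were 102-fold for FGFR1 (replicate 1) and 34.7-fold for FGFR2 (replicate 2). Against the 1 read of FGFR3, the ratio of FGFR1 was 1030 (exact 95% interval 184 to 40722). These folds hold only if reads could be assigned to FGFR3 and FGFR4. For FGFR4 the exact 95% Poisson interval of 0 reads reaches 0.743 CPM in replicate 2, the shallowest library.

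FGFR1 made up 55.3% (exact 95% interval 51.0 to 59.5%) of receptor reads in replicate 1, 75.5% (71.2 to 79.5%) in replicate 2 and 67.2% (63.2 to 70.9%) in replicate 3. Its majority over FGFR2 was thus present in every library and smallest in replicate 1. The log2 ratio of FGFR1 over FGFR2, taken on CPM + 0.5, was 0.30, 1.62 and 1.02 (mean 0.98 ± 0.66 SD, n = 3). With 3 replicates the exact two-sided sign-flip permutation test cannot give a p below 0.25, which was the value for this pair (adjusted p = 0.27 over 15 pairs). The sign refers to reads and may differ per transcript.

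Within the ligands, the shares of reads varied less between libraries for FGF7 and FGF2 than for FGF10 and FGF18. FGF7 held 40.4% ± 2.41 of ligand reads and FGF2 29.3% ± 2.82, beside 14.3% ± 8.14 for FGF10 and 16.0% ± 7.54 for FGF18 (SD, n = 3). The share of FGF2 was 27.4% (exact 95% interval 25.6 to 29.3%) in replicate 1, 32.5% (29.7 to 35.5%) in replicate 2 and 27.9% (25.4 to 30.5%) in replicate 3, so that replicates 1 and 2 differed beyond counting error. The share of FGF10 was 22.3% (exact 95% interval 20.6 to 24.1%), 14.4% (12.3 to 16.7%) and 6.04% (4.77 to 7.52%) in replicates 1 to 3. That of FGF18 was 8.87% (7.74 to 10.1%), 15.4% (13.2 to 17.7%) and 23.9% (21.5 to 26.4%). Replicate 1 thus held more FGF10 than FGF18 reads and replicate 3 more FGF18 than FGF10 reads, while in replicate 2 their intervals overlapped.

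Of 15 pairs of ligands or of receptors that could be compared, 14 had the same direction in all 3 libraries. For pairs with FGF1, FGFR3 or FGFR4 the direction was settled beforehand by their 2, 1 and 0 reads. Among the 7 pairs of genes with 10 or more reads in every library 6 had 1 direction, and the exception was FGF10 over FGF18. Its log2 ratio on CPM + 0.5 was 1.31, -0.09 and -1.94 (mean -0.24 ± 1.63 SD, n = 3; exact sign-flip permutation p = 0.75, adjusted p = 0.75). It turned sign without replicate 3, where the mean of the remaining libraries was 0.61. FGF7 exceeded FGF2 in reads by a log2 ratio of 0.59, 0.21 and 0.59 (mean 0.46 ± 0.22), FGF10 by 1.67 ± 0.96 and FGF18 by 1.43 ± 0.71 (SD, n = 3). The log2 ratio of FGF2 was 1.20 ± 0.93 over FGF10 and 0.97 ± 0.70 over FGF18. Each of these had an exact permutation p of 0.25, the smallest 3 replicates can give, and an adjusted p of 0.27. In the order of reads FGF7, FGF2, FGF10, FGF18, only the last neighbours had no common direction over the libraries.

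**Figure D2:**
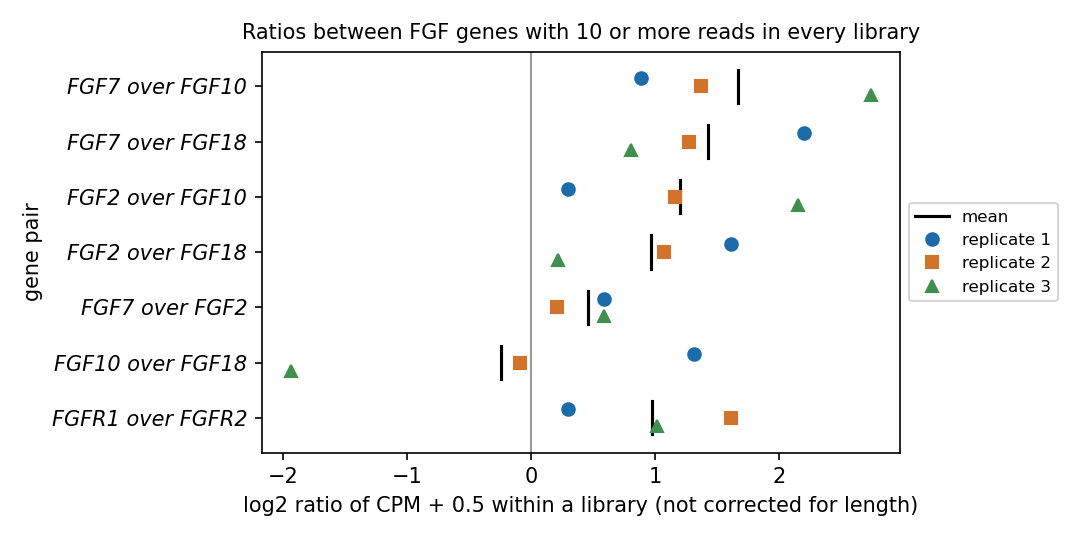
Log2 ratio of CPM + 0.5 within each library for the 7 pairs of FGF genes with 10 or more reads in every library, not corrected for transcript length. Points are replicates and black bars are means. Only FGF10 over FGF18 lies on both sides of 0, from 1.31 in replicate 1 to -1.94 in replicate 3.

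The spread between replicates was set against that of genes of like abundance in an edgeR fit over 10434 genes with 10 or more reads in every library. The ratio of the highest to the lowest library was 1.54 for FGF7, 1.54 for FGF2, 1.72 for FGF18, 1.80 for FGFR1 and 1.40 for FGFR2, beside a median of 1.54 over all tested genes. That median is over genes of any abundance. FGF7 and FGF2 lay near it, FGFR2 below it, and FGF18 and FGFR1 above it. For FGF10 the ratio was 5.80, a size reached by 22 tested genes, FGF10 included, or 0.211% of them. FGF10 had an unadjusted p of 0.000602 by the negative binomial Pearson statistic with edgeR's trended dispersion, and the adjusted p was 0.30, so that it did not pass.

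Over all genes this test called 0, or 0% of those tested. An unadjusted p under 0.05 was reached by 528 genes, or 5.06% of those tested, about the share that such a threshold passes by itself. The dispersion trend was fitted to these same genes and libraries, so this share is in part set by the fit. It does not show that the replicates varied only by chance. With the dispersion trend of DESeq2 there were likewise 0 calls. FGF7, FGF2, FGF18, FGFR1 and FGFR2 had unadjusted p values between 0.22 and 0.69 in the same edgeR fit. Some cell type markers had the order of libraries of FGF10 and some its reverse. Of 21 measured markers 4 (19.0%) had the order of FGF10, namely the fibroblast genes LUM, PDGFRA and FAP and the endothelial gene PECAM1. PECAM1 was at 4.51, 2.02 and 1.41 CPM in replicates 1 to 3, from 38, 10 and 10 reads. The other measured endothelial genes, TEK (7.72, 3.02 and 7.04 CPM) and ERG (6.89, 3.83 and 18.3 CPM), had neither order. The reverse order was held by 2 fibroblast genes (9.52% of the markers), namely THY1 (335, 488 and 612 CPM) and PDGFRB (38.1, 51.4 and 67.4 CPM). Among all measured genes 24.7% had the order of FGF10 and 25.4% the reverse. The summed endothelial markers were at 19.1, 9.47 and 27.3 CPM and the summed fibroblast markers, most of whose reads are of collagen genes, at 117650, 107280 and 118910 CPM. The part of cell composition in the spread of FGF10 was not tested. The share of reads in no annotated gene was 59.2, 58.9 and 62.0%, and library depth was highest in replicate 1 and lowest in replicate 2.

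**Figure D3:**
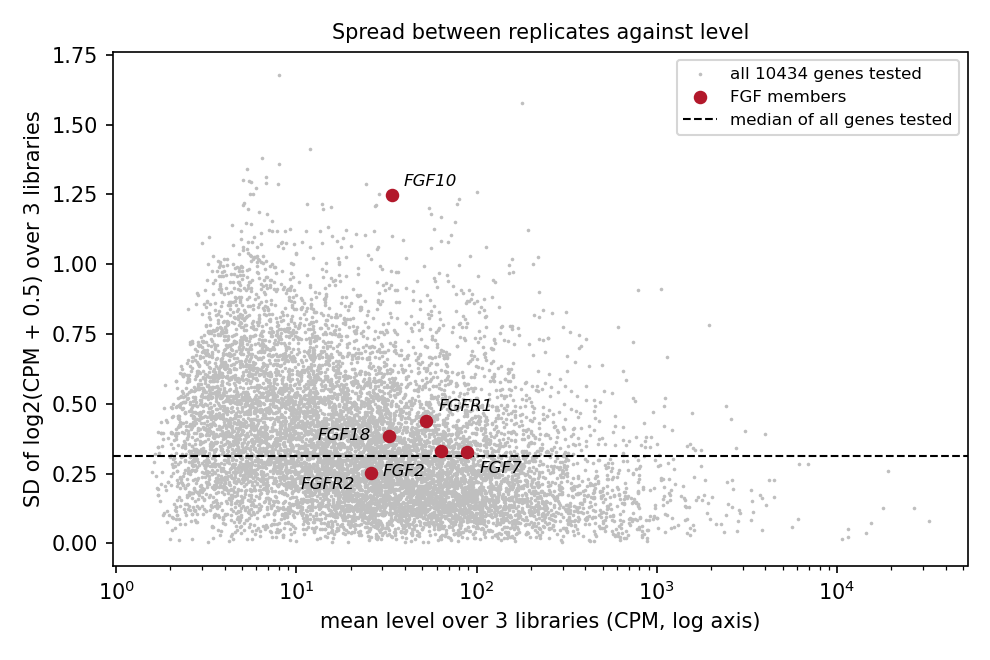
Standard deviation of log2(CPM + 0.5) over the 3 libraries against mean level in CPM (log axis) for 10434 genes (grey), with the 6 measured FGF genes in red. The dashed line is the median SD of all tested genes, 0.31. FGF10 lies at an SD of 1.25, and the other five between 0.25 and 0.44.

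Of the remaining 12 secreted FGF ligands, 1 was measured. This was FGF19, a hormone of the gut that lowers bile acid synthesis in the liver, with 152, 86 and 134 reads, or 18.1, 17.3 and 18.9 CPM (mean 18.1 ± 0.763, SD, n = 3). The libraries thus differed little for FGF19. FGF4, its neighbour in RefSeq, had 0 reads, and CCND1 on the other side had 51, 36 and 39. FGF21, a hormone of fasting, had 0, 4 and 3 reads and FGF23, the phosphate hormone of bone, 0, 0 and 2. FGF3, FGF4, FGF6, FGF8, FGF9, FGF16, FGF17, FGF20 and FGF22 had 0 reads in every library.

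Hormone-like FGFs act through klotho proteins. KLB, the co-receptor of FGF19 and FGF21, was measured with 28, 28 and 18 reads (3.83 ± 1.62 CPM, SD, n = 3), whereas KL, the co-receptor of FGF23, had 0 reads. FGFRL1, a family member without a kinase domain, had 1, 0 and 2 reads, and the secreted FGF carriers FGFBP1 and FGFBP3 had 0. The intracellular FGF homologous factors, which bind sodium channels rather than FGF receptors, were all under 1 CPM in some library. FGF13 had 9 reads and FGF14 7, all in replicate 1, and FGF11 and FGF12 had 1 read each, also in replicate 1.

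RNA was measured for most of the core protein and enzyme genes of heparan sulfate, which holds FGF and its receptor together. Over all listed genes the measured share was 34.6%, and it stands beside this and every list count below. Of 11 core protein genes with a row 10 were measured (median of the list 30.8 CPM, beside 20.5 CPM over all measured genes), and the exception was GPC2 with 0 reads. List medians here and below are over all genes of a list with a row, measured or not, unlike the 20.5 CPM. The glypican GPC4 stood at 126 ± 11.3 CPM and the syndecans SDC4, SDC2 and SDC3 at 115 ± 19.0, 47.0 ± 14.7 and 40.3 ± 15.9 CPM (SD, n = 3 each). SDC3 was lower in replicate 1, at 23.5 CPM, than in replicates 2 and 3, at 55.2 and 42.2 CPM.

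Of the 19 enzyme genes 11 were measured, with a median of 16.4 CPM over the list. SULF1, a sulfatase that removes 6-O-sulfate from heparan sulfate at the cell surface, was highest with 205, 210 and 223 CPM. EXT1 (120.3 ± 12.9 CPM) and EXT2 (67.8 ± 16.6 CPM), which polymerize the chain, and the second sulfatase SULF2 (69.6 ± 17.7 CPM; SD, n = 3 each) came next. Genes of the transferases that add 6-O-sulfate were below 1 CPM in every library, with HS6ST1 at 2, 4 and 5 reads, HS6ST2 at 1, 0 and 0 and HS6ST3 at 0. HS2ST1, which adds 2-O-sulfate, was measured at 31.7 ± 7.80 CPM. EXTL3 had 2.26, 9.27 and 5.21 CPM, an unadjusted p of 0.043 and an adjusted p of 0.94 in the edgeR test of spread.

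Most of the genes chosen for the intracellular arm of the pathway were measured at the RNA level, again beside 34.6% of all listed genes. Of 12 adaptor and proximal signalling genes 11 were measured, with a list median of 97.6 CPM. FRS2, the docking protein that FGF receptors phosphorylate, stood at 167 ± 31.7 CPM, and its relative FRS3 had 13, 6 and 1 reads and was the exception. PTPN11, the phosphatase recruited by FRS2, stood at 380 ± 38.1 CPM, CRK at 176 ± 70.8 and CBL, a ubiquitin ligase that removes receptors, at 143 ± 12.0 CPM (SD, n = 3 each). SOS1, which loads RAS with GTP, had 118, 91.3 and 31.7 CPM. This is the order of libraries of FGF10, which 24.7% of all measured genes had. In the edgeR test of spread SOS1 had an unadjusted p of 0.0057 and an adjusted p of 0.57. All 9 of 9 kinase cascade genes with a row were measured, among them NRAS (322 ± 28.2 CPM), MAP2K1 (93.5 ± 15.7) and MAPK3 (86.7 ± 30.4 CPM; SD, n = 3 each).

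Feedback inhibitors, many of which are induced by FGF and ERK signalling, were measured for 9 of 12 genes, with a list median of 9.24 CPM. SPRY1 led with 158, 73.2 and 69.7 CPM (mean 100.2 ± 50.0), followed by SPRED1 at 73.9 ± 15.5, SPRED2 at 70.6 ± 4.09 and DUSP7 at 24.1 ± 6.29 CPM (SD, n = 3 each). SPRY1 was higher in replicate 1 than in the other libraries, with an unadjusted p of 0.017 and an adjusted p of 0.76 in the edgeR test of spread. DUSP6, a phosphatase of ERK that is widely used as a readout of FGF signalling, had 8.79, 7.46 and 9.71 CPM. SPRY4 with 11, 2 and 12 reads, SPRY3 with 5, 0 and 0 and DUSP4 with 0 were the exceptions.

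Transcription factors downstream of FGF and ERK were measured for 9 of 10 genes, with a list median of 29.9 CPM. Of the PEA3 group, which responds to FGF in embryos, ETV1 stood at 34.1 ± 5.46 CPM and ETV5 at 10.9 ± 2.84 CPM (SD, n = 3), and ETV4 was the exception with 0, 2 and 4 reads. ELK4 (54.0 ± 6.16 CPM), ETS2 (46.1 ± 7.86 CPM) and ELK3 (35.2 ± 3.51 CPM; SD, n = 3 each) stood above these in reads, and EGR1, an immediate early gene, was highest, with 200, 272 and 384 CPM. No cells with and without FGF were compared, so these levels do not show how far the pathway was active.

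**Figure D4:**
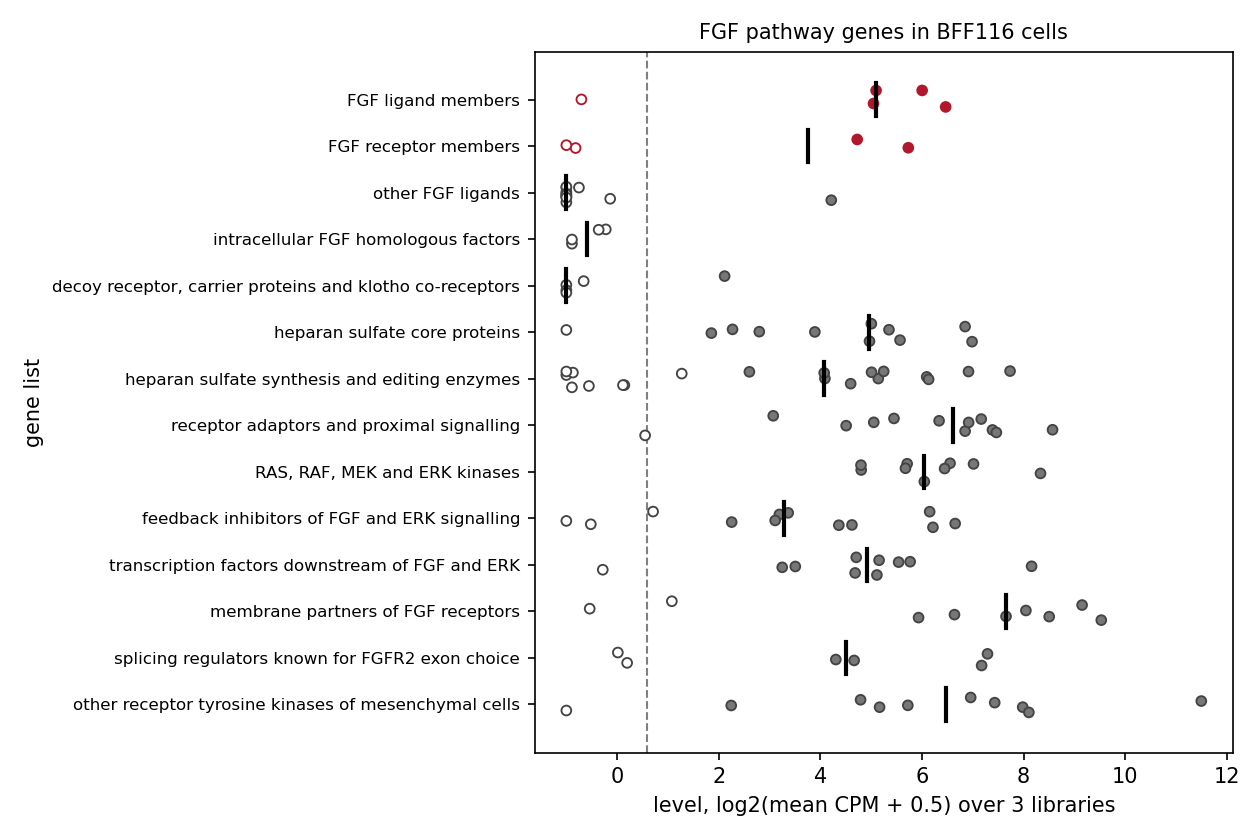
Mean level of each gene on the log2(CPM + 0.5) scale, by gene list. Each point is a gene, filled where it was measured and open where it was not, with FGF ligands and receptors in red. Thick bars are list medians and the dashed line marks a mean of 1 CPM. Other ligands, homologous factors and carriers lie mostly left of the line and signalling genes right of it.

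Regulators that direct the splicing of FGFR2 differed in presence. ESRP1 and ESRP2, which favour the epithelial form, had 7, 2 and 5 reads and 0, 2 and 8 reads. RBFOX2, which favours the mesenchymal form, stood at 156 ± 30.7 CPM, MBNL1 at 144 ± 31.8, CELF1 at 24.9 ± 2.35 and KHSRP at 19.3 ± 4.86 CPM (SD, n = 3 each), so that 4 of the 6 genes with a row were measured. Which form of FGFR2 the reads came from was not determined.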

How the data were processed

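The authors deposited raw read counts per gene for the 3 libraries, in 1 table with 0 columns of other samples. Per the submitters' processing notes, the tools were HTSeq (0.6.1), TopHat2 (2.0.10) and bcl2fastq (2.18.0.12); build, annotation, counting mode and strand are not stated. Library sizes leave out the table's 5 summary rows. Reads in no annotated gene were 58.9 to 62.0% of each total, reads with several alignments 7.52 to 7.99%. Per the labels' protocols, cDNA was amplified before library construction, and copies of 1 molecule cannot be recognised, so intervals and floors cover counting error only.

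CPM was computed with edgeR 4.0.16 in R 4.3.3 (TMM factors 0.978, 1.025 and 0.998). Library depth was 8608350, 4842331 and 7122651 gene reads in replicates 1 to 3. A floor of 3 reads, used in folds over genes near 0 reads, corresponds to 0.356, 0.605 and 0.422 CPM. The common biological coefficient of variation was 0.273. Spread was tested with a negative binomial Pearson statistic (trended dispersion, chi-square with 2 degrees of freedom, Benjamini-Hochberg over 10434 genes). Tested on simulated data, it missed most small and some larger changes of 1 replicate, so a gene that did not pass may still vary. Of 21 pairs planned, 16 had rows for both genes, and FGFR3 with FGFR4 was left out after their counts were seen. Planned lengths per transcript could not be applied. Alternatives covered normalization, pseudocount, filters, dispersion (DESeq2 1.42.0) and left-out replicates. Named genes were the members, the remaining FGF family, the 4 highest of each list, members on the rarer side of 1 CPM where these numbered 6 or fewer, and the 3 genes nearest in level to the highest ligand and receptor. A gene that this rule names is not reported here. HS6ST1, HS6ST2, HS6ST3, HS2ST1, DUSP6, ETV1, ETV5 and the genes with low unadjusted p were chosen after their values were seen. The members and lists were chosen with earlier results of these data known.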

Additional observations from a re-analysis of the deposited data

How the results depend on the processing

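The 6 measured FGF genes numbered 6 under all 8 alternatives run (another normalization, 0.5 CPM, 10 reads, a mean of 1 CPM, each replicate left out). Pairs with 1 direction numbered 14 under both normalizations and both pseudocounts. These settings act on both genes of a pair alike and cannot turn a direction within a library. Such pairs numbered 14 to 15 with a replicate left out, where the count cannot fall. Among the 7 pairs whose genes had 10 or more reads in every library there were 6, since fewer pairs were compared. The log2 ratio of FGF10 over FGF18 turned to 0.61 without replicate 3 and was -1.01 without replicate 1. In single libraries it was 1.31, -0.09 and -1.94, so its mean depends on which libraries are averaged. Why the libraries differed was not tested. The turn without replicate 3 was the 1 reversal, beside 104 log2 ratios that kept their direction. Most of these 104 belong to the 14 pairs with 1 direction in every library, whose mean could not turn under any setting. Genes more variable than the trend numbered 3 with edgeR's common dispersion and 0 to 15 with a replicate left out (15 without replicate 1, 1 without replicate 3); the cause was not tested. FGF10's adjusted p ranged from 0.18 to 0.996 over the alternatives in edgeR or DESeq2 fits and never passed. No paired analysis was possible because the series has 1 group. Lengths per kilobase or from proteins were not run. Depth limits the genes near 0 reads: in replicate 2 the exact Poisson interval of 0 reads, as given for FGFR4, reaches 0.743 CPM.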

Other observations

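Receptor tyrosine kinases outside the FGF family were measured for 9 of 10 genes of a fixed list, with a list median of 88.1 CPM, and KDR, the endothelial receptor of VEGF, had 0 reads. PDGFRA had 3127, 2874 and 2685 CPM in replicates 1 to 3, AXL 349, 246 and 229, DDR2, a collagen receptor, 256, 249 and 254, and EGFR 165, 186 and 165 CPM. DDR2 was thus steadier over the libraries than FGFR1. Membrane proteins known to bind FGF receptors or FGF were measured for 7 of 9 genes, led by the integrin subunit ITGB3 (739 ± 55.2 CPM), FLRT2 (569 ± 93.8), CD44 (363 ± 28.7) and the cadherin CDH2 (264 ± 18.5 CPM; SD, n = 3 each). FLRT1 with 0, 0 and 4 reads and L1CAM with 2, 13 and 14 were the exceptions. None of the 81 genes tested for spread in the pathway lists passed in the edgeR test, and 3 had an unadjusted p under 0.05. Over all 10434 tested genes 0 passed, and 5.06% had an unadjusted p under 0.05 in that test.

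By distance in log2(CPM + 0.5) over the 3 libraries, a measure that carries transcript length, the genes nearest to FGF7 were MAN1A2 (0.059), RBM45 (0.071) and DPP8 (0.074), and those nearest to FGFR1 were FAM129A (0.138), WISP1 (0.154) and CSNK1D (0.182). With 3 libraries and many genes, such neighbours are a description of these libraries.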
